A study of Arabidopsis thaliana with 12 samples.

Results

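Nitrate treatment of wild-type roots of Arabidopsis thaliana, accession Ws, was compared with the potassium chloride control. The comparison used 6 of the 12 arrays of the series, 3 from roots given 5 mM KNO3 and 3 from roots given 5 mM KCl, and all 22746 probe sets other than the array's own controls. The labels name no transgene or mutation in Ws. The hydroponic medium lacked other nitrogen but held 0.5 mM ammonium succinate, with 3 mM sucrose, and the seedlings were kept in it at 22 °C for 14 days of 16 h light and 8 h dark. The salts were added when the lights came on at day 15 and whole roots were collected 2 h later, so both groups had ammonium, potassium and sucrose and differed in the anion. The other 6 arrays, from the auxin receptor mutant afb3-1 under the same treatments, entered the estimate of the spread between replicates, the choice among several probe sets of a gene, a second measure of basal signal and the test of a genotype difference. The replicates are described as independent biological ones.

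Nitrate is both a nutrient and a signal for roots. After uptake by transporters of the NRT1/PTR and NRT2 families it is reduced to nitrite and then, in plastids, to ammonium. The plastid step in roots draws electrons from NADPH made by the oxidative pentose phosphate pathway, and glycolysis and the tricarboxylic acid (TCA) cycle supply the carbon skeletons that accept the ammonium. In parallel, transcription factors of the NLP and GARP families act in the transcriptional response to nitrate and in its crosstalk with phosphate supply.

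The values are the deposited signals on a log2 scale, and a change is the KNO3 mean minus the KCl mean. A call means a Benjamini-Hochberg adjusted p under 0.05 over all 22746 probe sets in limma. In total 658 probe sets (2.89%) were called, 420 higher (1.85%) and 238 lower (1.05%) with nitrate. Of the 13355 genes with a probe set assigned to that gene alone, 333 (2.49%) were called, 198 higher (1.48%) and 135 lower (1.01%). Among the 9233 probe sets without a single assigned gene, 323 (3.5%) were called, and 17 of the 40 largest rises and 19 of the 40 largest falls were among them. Many genes known from nitrate work therefore have no named value here. A gene was counted as having a name if its symbol differed from the locus code or a synonym was written in words. By this rule only 1644 genes had a name, of which 59 (3.59%) were called, 31 higher and 28 lower. A short alias alone, such as bHLH94 for AT1G22490, did not count.

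The arrays of a group correlated with Pearson r between 0.973 and 0.991 over probe sets. Arrays of different groups correlated with r between 0.960 and 0.984, so the ranges overlapped. KCl replicate 2 correlated more with KNO3 replicate 2 (0.984) than with KCl replicate 3 (0.973). Every one of these within-group values under 0.98 involved KCl replicate 3, which correlated with the other KCl arrays by 0.977 and 0.973. This array was the highest of the 3 KCl arrays for 54.2% of the lower calls and for 34.5% of all probe sets. Other arrays were also unevenly placed among the calls. KNO3 replicate 2 was the lowest KNO3 array for 62.4% of the higher calls (35.6% of all probe sets), KNO3 replicate 3 the highest for 47.4% of the higher calls (29.7%) and KCl replicate 2 the lowest KCl array for 49.2% of the lower calls (28.6%). Without KCl replicate 3 600 probe sets were called, 400 higher and 200 lower. In whole roots, fewer cells of a type and less RNA per cell cannot be told apart. Of the root markers listed, 3 of 14 had a named probe set. PYK10, a root beta-glucosidase, lay between 10.51 and 11.09 on all 6 arrays, and the root hair expansins EXPA7 and EXPA18 lay between 4.43 and 6.24. Of the shoot markers, 2 of 8 were measured, and neither passed the test. LHCB4.1, a light-harvesting protein, lay between 4.90 and 5.87 in KCl and between 4.73 and 5.49 in KNO3, and RCA, Rubisco activase, between 5.49 and 6.32 in KCl and between 5.30 and 6.23 in KNO3.

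Genes were described by functional group. The groups were first written as 45 lists and were then redefined as 47 lists after the annotation and the called genes had been seen, because the annotation holds names but few descriptions. Their counts therefore describe chosen lists, and where the first version of a group gave another number of calls it is printed beside the second. Most lists matched names in the annotation, so they leave out family members that lack such a name, called ones included. Of the 680 genes in the second lists 38 were called (5.59%), and of the 349 genes in the first lists 26 (7.45%), against 2.49% of all genes. A group of 40 genes at the share of all genes would hold about 1 call, so a single call in a large group says nothing about that group. The second lists took in 19 called genes that the first did not hold and left out 7 that it did (AT1G22490, ChiC, MYBC1, BAT1, RH57, AT4G36580 and AT4G37240). The last pair came from a first list of AP2/ERF factors, 47 genes with 1 call each way, whose pattern matched clone names and was dropped. Over all 13355 genes the median change was −0.04.

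Nitrate signalling was led by HHO1, HHO2 and HHO3, repressors of the GARP type that respond to nitrogen and phosphate supply. The list named 35 genes, of which 6 had a probe set, and 3 rose and none fell, with a median change of 1.92. HHO1 (AT3G25790) stood at 1.58, 1.40 and 1.82 on the KCl arrays and at 5.32, 5.62 and 6.59 on the KNO3 arrays. HHO2 (AT1G68670) stood at 3.1, 3.26 and 2.52 in KCl and at 6.03, 6.09 and 5.92 in KNO3. HHO3 (AT1G25550) stood at 4.42, 4.17 and 4.09 in KCl and at 7.74, 7.30 and 7.39 in KNO3. In each of the 3 genes every KNO3 array lay above every KCl array by more than the spread within either group, and the log2 changes were 4.24 ± 0.32, 3.05 ± 0.42 and 3.25 ± 0.27 (SE). The other 3 members did not pass, and AT4G37180 and AT1G49560 among them carry only a code in the annotation. The name HHO follows the annotation here, so genes of that family without this name are not counted under it. AT4G37180 changed by 0.78 (adjusted p = 0.327), NRG2 (AT3G60320), a regulator of nitrate signalling, by 0.30 (adjusted p = 0.434) and AT1G49560 by −0.29 (adjusted p = 0.673). All 3 HHO calls were made in each of the 6 fits that left out a Ws array.

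No listed nitrate transporter with a named probe set passed the test. Of 20 transporter genes listed 4 had a named probe set, and no gene of the list of nitrate and ammonium assimilation had one. NPF6.4 (AT3G21670), a member of the NRT1/PTR family, came closest. It stood at 4.55, 4.88 and 5.68 in KCl and at 3.88, 2.41 and 3.49 in KNO3, a log2 change of −1.78 ± 0.43 (SE, adjusted p = 0.0528). The groups did not overlap on this gene, and its call missed the threshold by little. NRT2.5 (AT1G12940), a high-affinity nitrate transporter, changed by 0.18 with a 95% interval from −2.92 to 3.28, so neither a large rise nor a large fall was detectable. AT2G26690 and AT1G68570 changed by −0.58 and −0.48 without passing (adjusted p = 0.402 and 0.658). By name, 12 genes belonged to the NRT1/PTR list (with NRT2.5, which is of another family), and none of these passed. Family members that the name pattern missed are not in the list, so it does not show that no member was called. GTR2 (AT5G62680), which carries glucosinolates, changed by 0.55 ± 0.13 (SE, adjusted p = 0.0517), and its KNO3 arrays, at 7.59, 7.56 and 7.82, all lay above the KCl arrays, at 6.92, 7.08 and 7.32.

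In the oxidative pentose phosphate pathway, 2 of 7 measured genes rose, none fell and the median change was 0.04. Both risers were 6-phosphogluconate dehydrogenases, which release NADPH. PGD3 (AT5G41670) stood at 7.83, 7.85 and 8.02 in KCl and at 10.89, 10.67 and 10.85 in KNO3. PGD1 (AT1G64190) stood at 8.69, 8.70 and 8.84 in KCl and at 10.74, 10.56 and 10.84 in KNO3. Their log2 changes were 2.90 ± 0.12 and 1.97 ± 0.10 (SE). PGD2 (AT3G02360), an isoform of the same enzyme, stood at 9.64, 9.53 and 9.40 in KCl and at 9.33, 9.22 and 9.42 in KNO3 and did not pass (log2 change −0.20, 95% interval −0.44 to 0.03, adjusted p = 0.475). The 4 remaining members lay between −0.19 and 0.20 and did not pass.

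The list for glycolysis, pyruvate dehydrogenase and the TCA cycle, made from gene names, held 19 measured genes. Of these 6 rose, none fell and the median change was 0.14. Genes of these steps that the annotation gives only by a code can be missing from the list, and called ones among them are not counted. The first list for these steps held 10 measured genes, of which 4 rose (PGM, MDH, IDH-VI and IDH-V). PGM (AT1G78050), a phosphoglycerate mutase of glycolysis, stood at 4.77, 4.86 and 4.57 in KCl and at 9.0, 8.33 and 9.33 in KNO3, a 17.8-fold rise (log2 change 4.16 ± 0.27 SE). MDH (AT3G47520), a plastid malate dehydrogenase, stood at 7.15, 7.39 and 7.0 in KCl and at 8.95, 8.57 and 9.10 in KNO3, a 3.24-fold rise (adjusted p = 0.00134). The other 4 changes were smaller and fell on genes that were already bright in KCl. IDH-VI (AT3G09810) and IDH-V (AT5G03290), subunits of mitochondrial isocitrate dehydrogenase, rose by 0.91 and 0.54 on the log2 scale (adjusted p = 0.00751 and 0.0176). MAB1 (AT5G50850), the E1 beta subunit of mitochondrial pyruvate dehydrogenase, stood at 8.79, 8.88 and 8.67 in KCl and at 9.38, 9.41 and 9.37 in KNO3, a change of 0.61 ± 0.09 (SE, adjusted p = 0.00431). GAPC2 (AT1G13440), a cytosolic glyceraldehyde-3-phosphate dehydrogenase, rose by 0.55 (adjusted p = 0.0166). IDH-V was not called without KCl replicate 1 or 2 or KNO3 replicate 1 or 3, and GAPC2 not without KNO3 replicate 1 or 3. The remaining 13 members, which include succinate dehydrogenase subunits and ATP-citrate lyase subunits, did not pass. Among them cICDH (AT1G65930), the cytosolic NADP-dependent isocitrate dehydrogenase, changed by −0.28 (adjusted p = 0.519).

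The sulfur list held calls in both directions. Of 5 measured genes in the list for sulfate assimilation and cysteine and methionine synthesis, 3 rose and 1 fell, with a median change of 0.49. The fall was that of SUFE2, whose role, given below, lies outside these pathways, so no listed gene of the pathways themselves was called lower. The first sulfate list held 1 measured gene, SUFE2, and the 3 risers entered with the redefined list. SIR (AT5G04590), the plastid sulfite reductase, stood at 7.18, 7.37 and 6.95 in KCl and at 8.23, 8.64 and 8.54 in KNO3, a 2.47-fold rise (adjusted p = 0.000642). APS3 (AT4G14680), an ATP sulfurylase that activates sulfate, stood at 4.37, 4.40 and 4.20 in KCl and at 5.13, 5.21 and 5.15 in KNO3, a 1.79-fold rise (adjusted p = 0.00304). CBL (AT3G57050), the cystathionine beta-lyase of methionine synthesis, rose 1.41-fold (adjusted p = 0.0272) and kept its call in 1 of the 6 leave-one-out fits. SUFE2 (AT1G67810), an activator of the cysteine desulfurase that feeds iron-sulfur cluster assembly, stood at 5.21, 5.00 and 6.60 in KCl and at 2.60, 2.64 and 3.28 in KNO3, a 6.79-fold fall (log2 change −2.76, adjusted p = 0.00231). KCl replicate 3 was the highest of its KCl arrays, and the call was also made without that array. APS4, the remaining member, changed by −0.02.

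**Figure D1:**
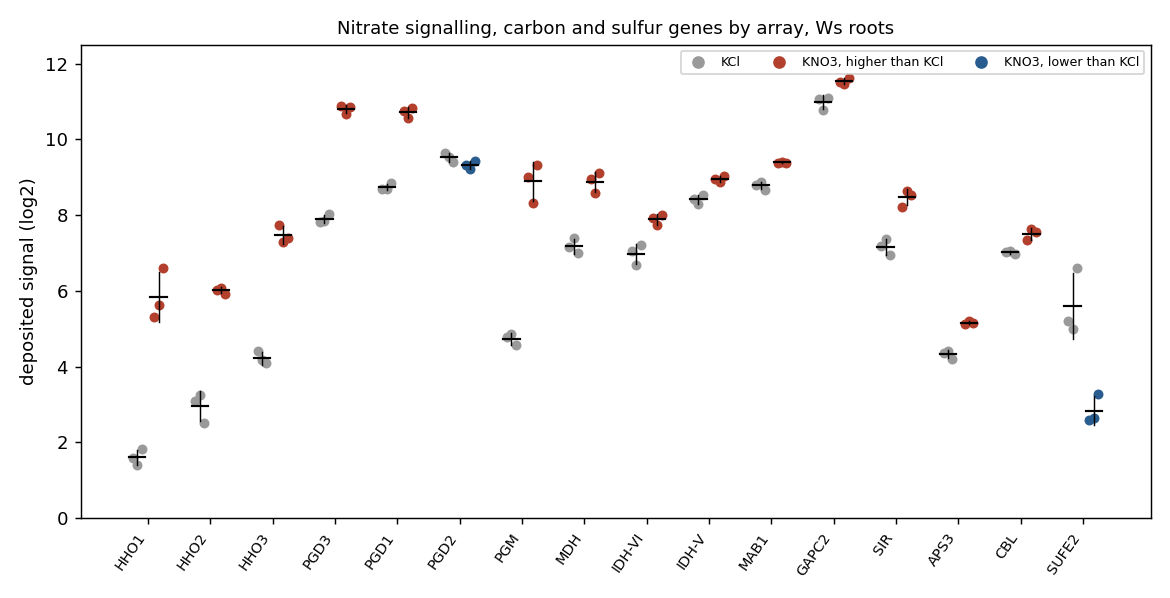
Deposited log2 signal (y axis) of 16 genes on each Ws array: grey points are the 3 KCl arrays and coloured points the 3 KNO3 arrays, horizontal bars are means and vertical lines 1 SD. PGD2 is the only gene plotted whose KCl and KNO3 arrays overlap, and SUFE2 the only one called lower.

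Redox genes were called in both directions. Of 9 measured glutaredoxins and thioredoxin system genes 2 rose (22.2% of the group, against 2.49% of all genes) and none fell, and neither of the 2 was in the first glutaredoxin list, in which none of 2 measured genes passed. NTRC (AT2G41680), the plastid NADPH-thioredoxin reductase, stood at 4.5, 4.20 and 3.63 in KCl and at 5.33, 5.37 and 5.64 in KNO3, a 2.53-fold rise (adjusted p = 0.00376). ROXY2 (AT5G14070), a glutaredoxin, rose 2.82-fold from a dim level (adjusted p = 0.0407), and the call was made in 1 of 6 leave-one-out fits, the fit without KNO3 replicate 2. AT4G33040, known as a glutaredoxin but named only by its code in the annotation, stood at 6.98, 6.80 and 7.90 in KCl and at 5.47, 4.56 and 5.12 in KNO3, a 4.53-fold fall (adjusted p = 0.00612). It is given as a member of the 20 largest falls with a single gene. Other glutaredoxins named only by a code were not sought, so their calls in either direction are not counted. The fall of AT4G33040 therefore does not give the direction of such genes. Of 14 glutathione transferases 1 fell, GSTU18 (AT1G10360), by 0.61 on the log2 scale (adjusted p = 0.0484, called in 1 of 6 leave-one-out fits). Among the genes matched by name, no peroxidase of 7 and no cytochrome P450 of 24 passed. Members of these families without such a name are not in the lists, and calls among them are not counted. CYP78A9 (AT3G61880) had the smallest p of the cytochromes P450, with 3.61, 2.95 and 3.12 in KCl and 6.36, 4.18 and 5.55 in KNO3 (log2 change 2.14 ± 0.58 SE, adjusted p = 0.0898).

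The cell wall lists held more falls than rises among the called genes. Of 19 expansins, proteins that loosen the wall during growth, 2 fell and none rose. EXPA8 (AT2G40610) stood at 5.73, 5.70 and 6.37 in KCl and at 4.41, 3.50 and 4.17 in KNO3, a 3.75-fold fall (adjusted p = 0.00682). EXLB1 (AT4G17030) stood at 7.92, 7.47 and 7.95 in KCl and at 6.92, 6.97 and 6.80 in KNO3, a 1.84-fold fall (adjusted p = 0.00612). Of 23 trichome birefringence-like proteins, which act in acetylation of wall polysaccharides, TBL38 (AT1G29050) and TBL41 (AT3G14850) fell by 1.00 and 1.21 on the log2 scale (adjusted p = 0.00304 and 0.0440), and TBL41 kept its call in 1 of 6 leave-one-out fits. The list of these proteins was not among the first lists and was made after the called genes had been seen. Of 15 family 9 glycosyl hydrolases, which include endoglucanases, GH9B8 (AT2G32990) fell 1.49-fold (adjusted p = 0.0474, called in 1 of 6 leave-one-out fits). The first, wider list of glycosyl hydrolases held 39 measured genes and 2 falls, GH9B8 and ChiC. XTH20 (AT5G48070), 1 of 10 xyloglucan endotransglucosylase/hydrolases, went the other way, from 6.97, 6.83 and 6.54 in KCl to 7.89, 7.69 and 8.16 in KNO3 (2.19-fold, adjusted p = 0.00161). XTH16 (AT3G23730), of the same family, changed by −1.31 and did not pass (adjusted p = 0.0982).

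**Figure D2:**
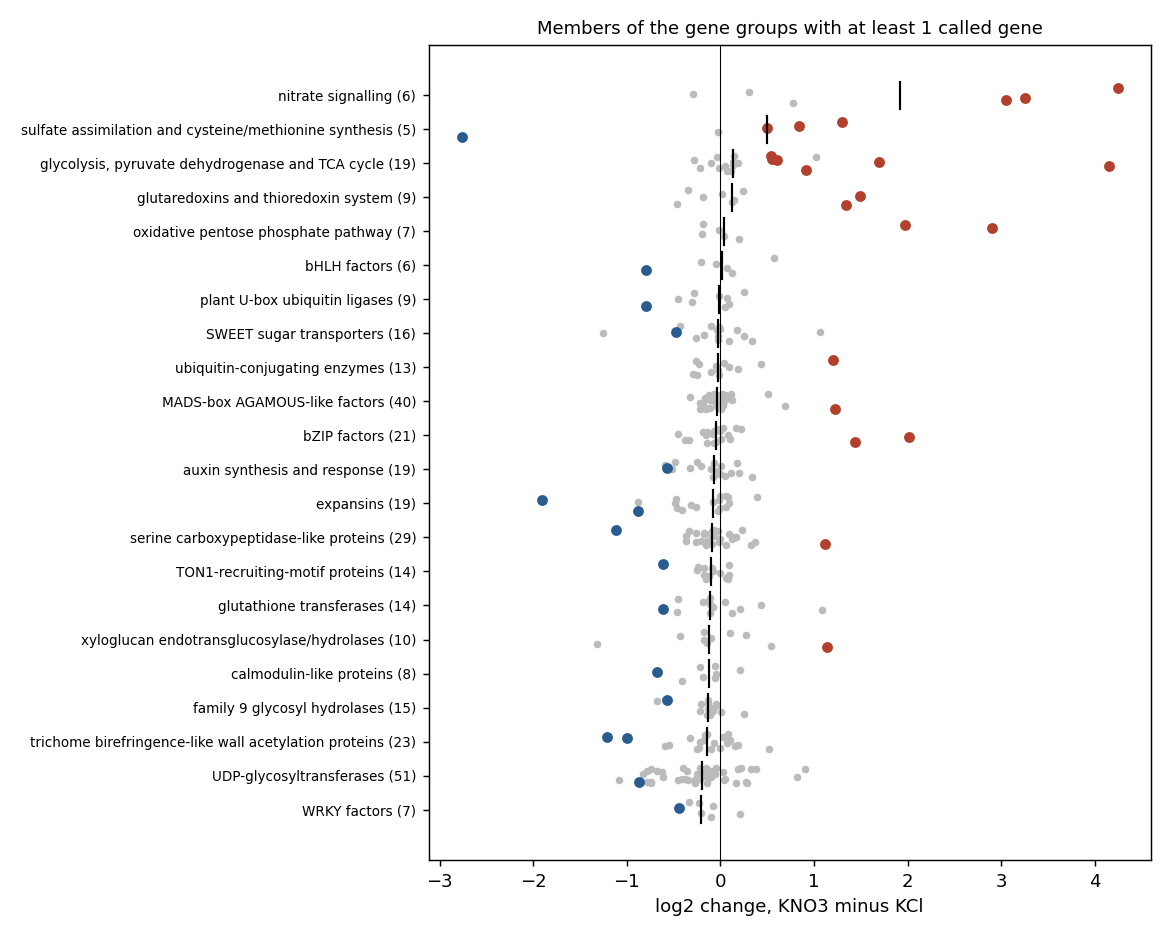
Log2 change (x axis, KNO3 minus KCl) of every measured gene in the 22 groups with at least 3 measured genes and at least 1 call, 1 point a gene, with the number measured in brackets. Red points were called higher, blue lower and grey not called, and the black tick is the median of the group. In most groups 1 or 2 called genes stand away from a median near 0, while nitrate signalling has a median of 1.92.

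Outside the nitrate signalling list, the second lists of transcription factors held 1 or 2 calls each. Factors without a family name in the annotation are not in these lists, so the counts do not cover whole families. Of 21 bZIP factors 2 rose. HYH (AT3G17609), the homolog of the light-response factor HY5, stood at 4.48, 4.21 and 4.55 in KCl and at 6.66, 5.72 and 6.92 in KNO3, a 4.05-fold rise (adjusted p = 0.00236). bZIP58 (AT1G13600) rose 2.70-fold (adjusted p = 0.00458). The first bZIP list held bZIP58 as its single call among 22 measured genes, since HYH was added with the redefined list. AGL79 (AT3G30260) was the only call among 40 MADS-box AGAMOUS-like factors. It stood at 3.51, 3.44 and 3.54 in KCl and at 4.79, 4.64 and 4.73 in KNO3, and a second, dimmer probe set of the gene changed by 0.57 without passing (adjusted p = 0.355). Of 7 WRKY factors WRKY47 (AT4G01720) fell by 0.44 on the log2 scale (adjusted p = 0.0493), a call made in none of the 6 leave-one-out fits. BPEp (AT1G59640), a bHLH factor, fell 1.74-fold (adjusted p = 0.00643). The first bHLH list of 7 measured genes held another fall in its place, AT1G22490 (bHLH94 in the annotation, log2 change −0.55, adjusted p = 0.0173), which the redefined pattern missed. MYBC1 (AT2G40970), a MYB-related factor, stood at 6.67, 6.17 and 6.68 in KCl and at 5.12, 5.08 and 5.36 in KNO3, a 2.50-fold fall (adjusted p = 0.00175).

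Hormone groups held a single call. Of 19 genes of auxin synthesis and response 1 fell, HAT2 (AT5G47370), a homeodomain-leucine zipper factor induced by auxin, by 0.57 on the log2 scale (adjusted p = 0.0347). This is 5.26% of the group, against 2.49% of all genes, and 11 of the 19 belonged to the lowest tertile by signal. HAT2 was added to the list after its call was seen, the first auxin list had no measured gene, and the call was made in none of the 6 leave-one-out fits. None of 6 response regulators passed, all 6 of them also in that tertile. Protein turnover genes also moved singly. UBC18 (AT5G42990), a ubiquitin-conjugating enzyme, stood at 5.03, 5.10 and 5.49 in KCl and at 6.54, 6.07 and 6.60 in KNO3, the only call among 13 such enzymes (2.30-fold, adjusted p = 0.00520). PUB19 (AT1G60190), 1 of 9 U-box ubiquitin ligases, fell 1.73-fold (adjusted p = 0.0488, called in none of the leave-one-out fits).

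Further groups had a single call or a pair in opposite directions. Of 51 UDP-glycosyltransferases UGT80B1 (AT1G43620), which glucosylates sterols, fell 1.82-fold (adjusted p = 0.00289), with KNO3 arrays at 3.75, 3.78 and 3.80 against 4.86, 4.59 and 4.49 in KCl. The first list of these enzymes held 43 measured genes and no call. Of 29 serine carboxypeptidase-like genes scpl31 (AT1G11080) rose and scpl28 (AT2G35770) fell, each 2.17-fold (adjusted p = 0.0135 and 0.00643). SWEET9 (AT2G39060), of a family of 16 sugar transporters, fell by 0.48 from a dim level (adjusted p = 0.0357). SWEET9 kept its call in 1 of 6 leave-one-out fits. CML39 (AT1G76640), 1 of 8 calmodulin-like proteins, fell 1.60-fold (adjusted p = 0.0353, called in 2 of 6 leave-one-out fits), and TRM21 (AT5G43880), 1 of 14 TON1-recruiting-motif proteins, fell 1.53-fold (adjusted p = 0.0130).

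The other 22 groups with at least 3 measured genes, 324 group memberships in all, had no call. They included 69 plastid-encoded genes, with a median change of −0.30 and 13 above 0, and 15 mitochondrially encoded genes, with a median of −0.20 and none above 0. The mitochondrial list, made from gene symbols, did not hold orfX, another mitochondrial gene, which was called lower (log2 change −0.70, adjusted p = 0.0471). Within the list nad4 had the smallest p, at 6.52, 5.43 and 6.04 in KCl and 5.21, 5.20 and 5.08 in KNO3 (log2 change −0.83, adjusted p = 0.0659). Of 11 nuclear photosynthesis genes none passed and none was above 0, with a median of −0.52. The smallest p in that group belonged to PORB (−0.41, adjusted p = 0.483) and LHCB4.2 (−0.72, adjusted p = 0.573). The shoot markers LHCB4.1 and RCA are members of that group, and the part of leaf RNA or of array differences in these shifts was not tested. Of 11 autophagy genes none was above 0 and none passed (median −0.24), with ATG8H at −0.52 (adjusted p = 0.516). The 22 beta-glucosidases, 11 RALF-like peptides, 6 CLE peptides and 15 tetraspanins had medians between −0.07 and −0.05 and no call.

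The 59 called genes with a name included 21 that belong to no group of the second lists, 9 higher and 12 lower, and they are described here after their values were seen. WNK7 (AT1G49160), a WNK family protein kinase, stood at 2.63, 2.45 and 1.73 in KCl and at 5.73, 5.74 and 5.58 in KNO3, a 10.7-fold rise (adjusted p = 5e-05). DTX50 (AT5G52050), a MATE-type efflux carrier, stood at 2.27, 2.14 and 2.54 in KCl and at 5.58, 4.94 and 5.53 in KNO3, an 8.18-fold rise (adjusted p = 0.000629). BAT1 (AT4G31910), an acyltransferase that acts on brassinosteroids, rose 5.07-fold (adjusted p = 0.000149). PMEAMT (AT1G48600), a methyltransferase of phosphocholine synthesis, stood at 8.30, 7.78 and 7.38 in KCl and at 9.92, 9.82 and 10.03 in KNO3, a 4.29-fold rise (adjusted p = 0.000314). ATB2 (AT1G60710), an aldo-keto reductase, rose 2.16-fold, and the spindle checkpoint gene BUBR1 (AT2G33560) 2.09-fold (adjusted p = 0.00114 and 0.0352). The other 3 rises were RBL (AT3G55510, 1.73-fold), the RNA helicase gene RH57 (AT3G09720, 1.70-fold) and CURT1D (AT4G38100, 1.60-fold), a thylakoid curvature protein.

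Named genes outside the groups also fell. AZG1 (AT3G10960), a purine transporter, stood at 5.34, 5.58 and 5.51 in KCl and at 4.58, 4.46 and 4.33 in KNO3, a 2.03-fold fall (adjusted p = 0.000427). ALN (AT4G04955), the allantoinase that opens the ring of allantoin, stood at 6.87, 6.73 and 6.67 in KCl and at 6.22, 5.52 and 5.84 in KNO3, a 1.86-fold fall (adjusted p = 0.0280). The ALN call was made in 1 of the 6 leave-one-out fits and that of AZG1 in all 6. HCT (AT5G48930), a hydroxycinnamoyltransferase of lignin precursor synthesis, stood at 8.75, 8.54 and 8.61 in KCl and at 7.77, 7.75 and 8.01 in KNO3, a 1.73-fold fall (adjusted p = 0.00206). The chitinase gene ChiC (AT4G19810) fell 1.93-fold (adjusted p = 0.0268) and AILP1 (AT5G19140) 2.44-fold (adjusted p = 0.0321), and each kept its call in 1 of 6 leave-one-out fits. SKP2A (AT1G21410), an F-box protein of cell cycle control, and FHL (AT5G02200), which acts in phytochrome A signalling, fell 1.82-fold and 1.77-fold (adjusted p = 0.0320 and 0.0201). The smallest falls were those of orfX, TSC10B (AT5G19200, a sphingolipid synthesis reductase), SIS (AT5G02020) and APK1A (AT1G07570, a protein kinase), between 0.55 and 0.70 on the log2 scale. Over the 59 named calls the median rise was 1.3 and the median fall −0.81, and 22 of the 31 rises and 10 of the 28 falls kept their call in all 6 leave-one-out fits.

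The calls that rested on particular arrays were these. TBL41, CBL and ALN were called only in the fit without KNO3 replicate 1, GH9B8, SWEET9 and orfX only without KNO3 replicate 2, GSTU18, ChiC and SIS only without KCl replicate 1, and AILP1 and SKP2A only without KCl replicate 2. RBL and RH57 were not called without KCl replicate 3, KNO3 replicate 2 or KNO3 replicate 3, nor RBL without KCl replicate 1 and RH57 without KCl replicate 2. BUBR1 was called only without KCl replicate 2 or KNO3 replicate 2, and CML39 only without KCl replicate 3 or KNO3 replicate 1. CURT1D lost its call without KNO3 replicate 2 or 3, and scpl31 without KCl replicate 1 or KNO3 replicate 1 or 2. TRM21 lost it without KCl replicate 1 or 2 or KNO3 replicate 3, FHL without KCl replicate 3 or KNO3 replicate 1 or 3, and TSC10B without KCl replicate 3 or KNO3 replicate 2 or 3. APK1A, like HAT2, PUB19 and WRKY47, was called in none of these fits. Apart from these and from IDH-V, GAPC2 and ROXY2, described above, the 32 remaining named calls were made in all 6 fits.

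**Figure D3:**
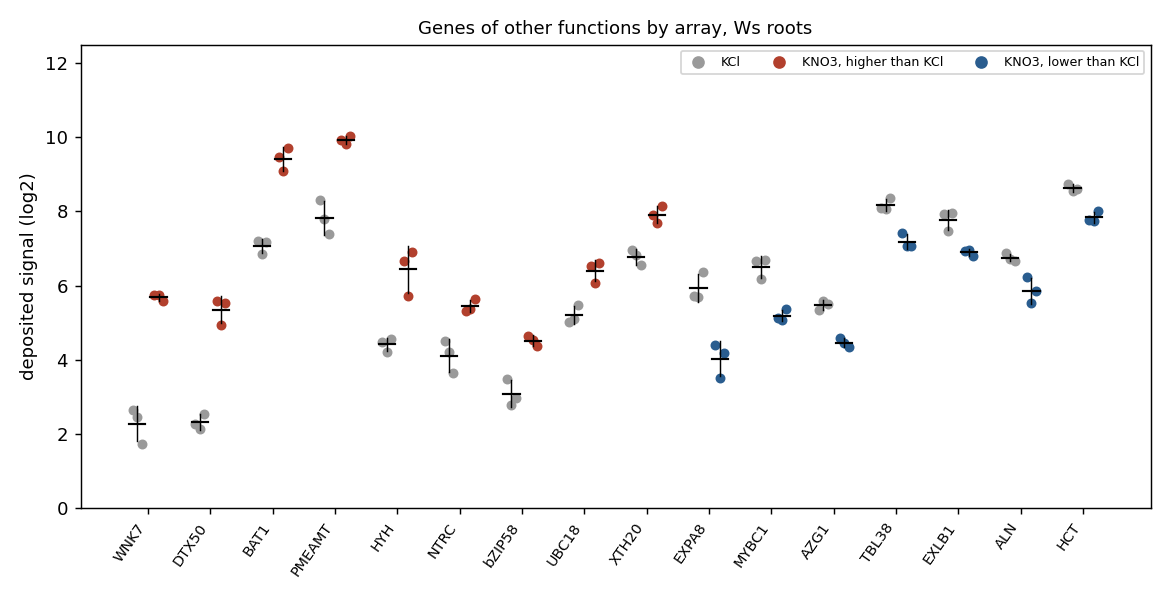
Deposited log2 signal (y axis) of 16 called genes of other functions on each Ws array: grey points are the 3 KCl arrays, red the 3 KNO3 arrays of genes that rose and blue those of genes that fell, with means (horizontal bars) and 1 SD (vertical lines). In all 16 genes the KCl and KNO3 arrays do not overlap, and the distance between groups runs from 3.41 for WNK7 down to 0.79 for HCT.

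Called rises had a larger median than called falls. The median called rise was 1.26 on the log2 scale, or 2.39-fold, and the median called fall −0.85, or 1.80-fold. At least a 2-fold change was found in 281 of the rises (66.9%) and in 71 of the falls (29.8%). At least a 4-fold change was found in 101 rises (24.0%) and in 7 falls (2.94%), and at least an 8-fold change in 30 rises and no fall. All 658 called probe sets had no overlap between their KNO3 and KCl arrays, against 17.3% of all probe sets. Of the rises 251 (59.8%) were called in all 6 leave-one-out fits, and of the falls 76 (31.9%), while 29 calls of either direction were made in none of them. Among the 20 largest rises with a single gene, AT3G28510, with a change of 3.38, was the only one whose call was lost in every such fit (adjusted p = 0.0357 with all arrays).

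The number and size of called changes differed with basal signal. Probe sets were divided into quintiles of the mean of the 3 KCl arrays, with bounds at 1.60, 2.95, 4.63 and 6.02. From the dimmest to the brightest quintile, 5, 50, 119, 107 and 139 probe sets were called higher and 0, 10, 51, 87 and 90 lower. Together these came to 0.110%, 1.32%, 3.74%, 4.26% and 5.03% of each quintile. Falls in the dimmest 2 quintiles thus numbered 10, all in the second, and rises were found in each quintile. The 10 falls of the second quintile became 1 with only the 6 Ws arrays, 2 without KNO3 replicate 3 and 4 without KNO3 replicate 2. They became 5 without KCl replicate 2 or without KNO3 replicate 1, and 46 with array weights. In the dimmest quintile falls numbered 3 with array weights and 2 without moderation or with robust moderation and a trend. There was 1 with a random block for the replicate number and 1 at an adjusted p of 0.1. The median called rise was 1.15 over the 5 rises of the dimmest quintile, 1.88 in the second, 1.46 in the third, 1.22 in the fourth and 1.01 in the brightest. The share of called rises that reached 2-fold went from 76.0% in the second quintile to 53.2% in the brightest. Called falls had median sizes of 1.64-fold, 1.94-fold, 1.82-fold and 1.73-fold from the second to the brightest quintile.

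The KCl arrays set both the basal signal and the change, so the same counts were taken with basal signal from the 3 afb3-1 KCl arrays, which are outside the contrast. From dim to bright these gave 4, 52, 118, 108 and 138 rises and 0, 10, 58, 80 and 90 falls. The median called rises were then 2.57, 1.89, 1.46, 1.18 and 1.02. With the mean of all 6 Ws arrays as the measure, the counts were 0, 14, 95, 126 and 185 rises and 0, 18, 75, 78 and 67 falls, so the share of rises in the dim quintiles depended on taking the untreated level. The median called rises by that measure were 1.14, 1.55, 1.29 and 1.17 from the second to the brightest quintile, and the shares that reached 2-fold were 64.3%, 72.6%, 72.2% and 60.5%, so neither went steadily down with signal. The spread between replicates also differed with signal. The median residual SD was 0.121 in the dimmest quintile, 0.191 in the second, 0.258 in the third, 0.228 in the fourth and 0.197 in the brightest. Changes can be understated where signals come near the floor, and a gene at the floor in KCl can have little room to fall. Whether this shaped the counts was not tested. Changes of at least 2-fold that were not called numbered 4, 10, 45, 59 and 51 from dim to bright.

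**Figure D4:**
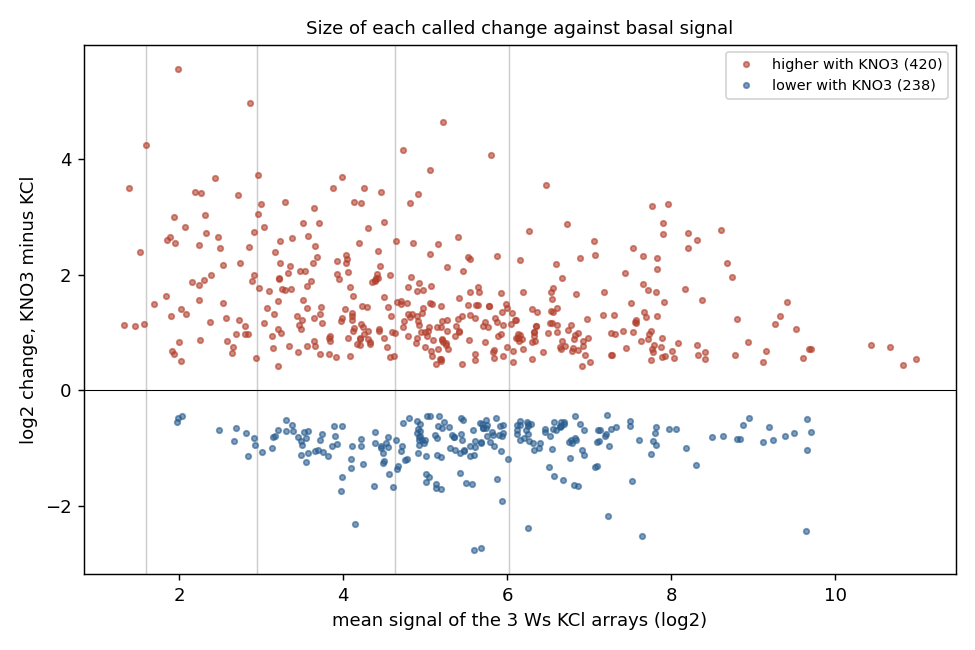
Log2 change (y axis, KNO3 minus KCl) of the 658 called probe sets against the mean log2 signal of the 3 Ws KCl arrays (x axis), red for the 420 higher and blue for the 238 lower, with grey lines at the quintile bounds of all 22746 probe sets. The largest rise is 5.57 and starts in the second quintile, while no fall reaches −3.

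Individual genes span this range. In the dimmest quintile AT5G59080 stood at 1.5, 1.17 and 1.51 in KCl and at 5.46, 3.83 and 5.39 in KNO3. In the second quintile AT5G10210 stood at 2.36, 1.70 and 1.92 in KCl and at 7.69, 7.21 and 7.79 in KNO3, and AT2G48080 at 2.93, 3.39 and 2.28 in KCl and at 7.84, 7.79 and 7.88 in KNO3. Both were among the 4 called rises that began in the lowest 2 quintiles and ended in the brightest. Among probe sets with a single gene, to which these rankings are limited, the third quintile was led by AT3G07350 (3.73), AT4G18340 (3.51), a family 17 glycosyl hydrolase, and AT1G80380 (3.44), and the fourth by PGM (4.16), AT1G73600 (3.25) and AT3G18560 (2.65). In the brightest quintile the largest rises of such probe sets were those of PGD3 (2.90), AT4G32950 (2.76) and BAT1 (2.34).

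Falls of individual genes are given next. In the brightest quintile AT4G17670 stood at 7.43, 7.03 and 8.46 in KCl and at 5.62, 4.49 and 5.22 in KNO3, and AT1G64590 at 9.61, 9.57 and 9.75 in KCl and at 7.72, 7.08 and 6.85 in KNO3. The log2 changes were −2.53 and −2.43 (adjusted p = 0.00285 and 0.000377). In the fourth quintile AT2G32560, an F-box protein gene, stood at 5.33, 5.64 and 6.08 in KCl and at 3.11, 2.90 and 2.86 in KNO3. Again among probe sets with a single gene, the third quintile was led by AT5G45650, a subtilisin-like protease gene (−1.74), AT3G22540 (−1.66) and AT2G44580 (−1.28), and the second by AT5G37540 (−1.13). In all, 239 of the 420 rises moved up at least 1 quintile of signal and 136 of the 238 falls moved down, 2 of them into the dimmest quintile.

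**Figure D5:**
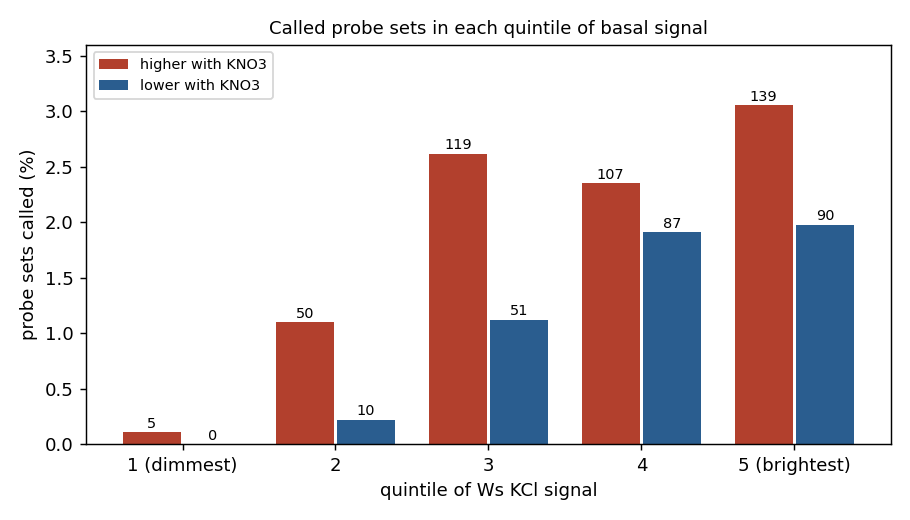
Share of probe sets called in each quintile of Ws KCl signal (y axis, percent), red for higher and blue for lower with KNO3, with the number of probe sets above each bar. The lower calls go from 0 in the dimmest quintile to 90 in the brightest, and the higher calls from 5 to 139.

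Genes with several probe sets gave a check within an array. AT3G47980 rose by 2.92 and 3.23 on its 2 probe sets, and AT5G54130 by 2.42 and 2.67, all 4 called. For AT2G32560, AGL79, AT5G39785 and AT5G49780 the brighter probe set was called and the dimmer, in the dimmest tertile of probe sets, was not.

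Called genes were also placed by their order along the chromosomes. Of 5845 pairs of adjacent protein-coding genes in which both were measured, 11 pairs had both called, 8 both higher and 3 both lower, and none opposite. Of the 189 measured neighbours of higher genes 16 were higher (8.47%, against 1.48% of all genes), and of the 150 measured neighbours of lower genes 6 were lower (4.0%, against 1.01%). The pairs included AT5G62720, a membrane protein gene of the HPP family (3.68), beside AT5G62710 (1.02), AT5G42830 (1.47) beside AT5G42840 (1.43), and SUFE2 (−2.76) beside AT1G67820 (−1.05). Adjacent genes can share transcripts or probes, and this was not tested.

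The response was not distinguishable from that of afb3-1 in the test of the difference. In limma's interaction of genotype and nitrate over the 12 arrays, 664 of the 22746 probe sets had an unadjusted p under 0.05. Among these were 40 of the 658 called in Ws. Calls were chosen by the Ws change, which is part of the interaction, so the 40 are not a result about the called probe sets. After adjustment no probe set passed (smallest adjusted p = 0.999). None of the values above is therefore shown to be particular to Ws.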

How the data were processed

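Total RNA of whole roots was hybridized to single-colour Affymetrix arrays after biotin labelling with a 3′ IVT kit, per the labels. The values are log2 signals of 22810 probe sets deposited by the authors. The sources used here do not give the background correction, normalization or summarization. The 64 control probe sets were left out. There is no read depth, and the number of arrays (3 a group) limits the precision. Array medians lay between 3.78 and 3.91 in the 6 Ws arrays, and no further normalization was applied.

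Gene names came from the platform annotation, with symbols updated by Entrez identifier from RefSeq's table for TAIR10.1. Of the probe sets, 13513 had 1 gene (13436 found in the table, 77 left with the older name) and 503 had several. For the 147 genes with several probe sets, the brightest set by mean over the 12 arrays was taken. The table was used for names and gene order only. No sequence was used here.

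A linear model with 1 mean for each of the 4 groups was fitted over the 12 arrays in limma 3.58.1 (R 4.3.3). Variances were moderated by empirical Bayes, with 8 degrees of freedom from residuals and 3.20 from the prior. Tests were two-sided, with Benjamini-Hochberg adjustment over 22746 probe sets and a threshold of 0.05. The procedure was tested on simulated data. Counts and plots were made with pandas 2.3.3 and matplotlib 3.10.9 in Python 3.11.15.

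The genes and lists were chosen with earlier results of these data known. The 45 gene groups written first were replaced by 47 after the annotation and the called genes had been seen, and some called genes (HAT2, HYH, BPEp, MAB1, GAPC2, SIR, APS3, CBL, ROXY2 and NTRC among them) entered a group only then. No group was tested as a set. The rule for naming took the 20 largest rises and 20 largest falls with a single gene, up to 5 called members of each group with at least 3 measured genes or the 2 with the smallest p, the 3 largest rises and falls in each quintile of basal signal, and the genes of the nitrate groups. The text names a selection of these. Named calls outside the groups were chosen after their values were seen.

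The alternatives changed 1 choice at a time: median centring, quantile normalization, a filter that dropped the dimmest tertile (mean log2 of 2.32 or less), a fixed or random block for the replicate number, only the 6 Ws arrays, no moderation, robust moderation with a trend, array weights, an adjusted p of 0.1, a fold of at least 1.5, leaving out each Ws array, other measures of basal signal, all probe sets of a gene and, added after the data were seen, the first gene groups.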

Additional observations from a re-analysis of the deposited data

How the results depend on the processing

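The count of 658 called probe sets, 420 higher and 238 lower, moved by over 1.5 times with some choices, and the cause was not tested. It was 338 (256 higher, 82 lower) with only the 6 Ws arrays, 400 (279 higher, 121 lower) without moderation and 1220 (709 higher, 511 lower) with array weights, which gave KCl replicate 3 a weight of 0.28 and KNO3 replicate 3 a weight of 2.65. Leaving out 1 array gave between 370 and 600 calls, 266 to 400 of them higher and 104 to 200 lower. The lowest count came without KNO3 replicate 3, and the lower calls also moved by over 1.5 times without KCl replicate 1 (144), KNO3 replicate 1 (153) or KNO3 replicate 2 (148). At an adjusted p of 0.1 there were 407 lower calls. Quantile normalization, median centring, the filter on dim probe sets, trend with robust moderation and the fold of 1.5 kept all 3 counts within 1.5 times, from 603 to 697 in total.

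Same-numbered KCl and KNO3 arrays deviated together with correlations of −0.281, 0.542 and 0.068, so the numbers were not taken to pair them. With the replicate number as a fixed block 973 probe sets were called (566 higher, 407 lower), and with a random block 911 (547 higher, 364 lower).

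The 129 probe sets named by the rule were refitted under 17 alternatives, which leave out those on basal signal, the choice of probe set and the first gene groups. Of 1287 comparisons of the 76 called ones, 1129 kept the call and direction and 158 lost it. Of 893 comparisons of the uncalled ones, 25 gained a call. None of the called ones reversed. The counts of calls in the groups that hold HHO1 to HHO3 and the 6-phosphogluconate dehydrogenases were at least 3 and 2 in every alternative. The 6 carbon metabolism rises became 2 with only the 6 Ws arrays. With the gene groups as first written the carbon rises were 4, the sulfur rises 0 and the redox rises 0. Changes of low size in dim probe sets can be limited by signal over background, which was not tested.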
